A study of Mus musculus with 15 samples.

Results

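The tibialis anterior (TA) pulls the foot up at the ankle and the gastrocnemius (GS) pushes it down, so the motor neurons that supply them drive antagonist muscles of a single joint. The libraries of these 2 motor pools, 3 of TA and 3 of GS, were taken by their labels from a series of 15 RNA-seq libraries, and the measurements below compare the first 3 with the other 3. A motor pool is the set of spinal motor neurons that supplies a muscle. The other 9 libraries of the series came, in threes, from the peroneus longus (PL), extensor digitorum longus (EDL) and intrinsic foot muscle (IF) pools. All animals were wild-type mice. In every group the tracer, a fluorescent cholera toxin subunit, had been injected into the muscle at postnatal day 4 and the traced neurons were cut out of spinal cord sections by laser at day 6. The groups thus share age, tracer and capture, and differ in the injected muscle. Each library pooled 30 to 40 cells from 2 to 5 animals. Libraries of a pool are biological replicates in the labels, which do not say which animals went into which library, so p-values measure the spread between these pooled libraries. In such bulk samples fewer cells of a type and less RNA per cell cannot be told apart.

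Limb motor neurons lie in the lateral motor column of the spinal cord. Its lateral division, which makes the LIM homeodomain factor Lhx1 and the guidance receptor EphA4, sends axons to the dorsal side of the limb, where the peroneal nerve supplies the TA, EDL and PL. Its medial division, which makes the LIM homeodomain factor Isl1, sends axons to the ventral side, where the tibial nerve supplies the GS and most foot muscles. Hox proteins and their cofactors, cell adhesion molecules and target-derived signals are known to divide each column further into pools.

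The gene counts summed to between 5488780 and 7042076 reads per library over the 6 TA and GS libraries. Between 13092 and 13835 genes had a read in a TA library and between 13610 and 16429 in a GS library. All 10 motor neuron markers examined were tested, and none was called between the pools. Their log2 fold changes were above 0 in 6 and below in 4. The summed level of the 10 varied widely between libraries, at 118700, 90100 and 52350 CPM in TA and 31140, 106000 and 50250 in GS. Among these markers the choline acetyltransferase gene Chat held 93.1, 149.5 and 222 CPM (read counts as a share of the library, scaled by the TMM method) in TA and 135, 156 and 156 in GS. Its TA and GS libraries overlapped, with a log2 fold change of TA over GS of 0.06 ± 0.41 (SE). Markers of other cells were also present. The summed level of 16 oligodendrocyte markers was 808, 1032 and 1747 CPM in TA and 606, 345 and 712 in GS. The sum of 12 astrocyte markers was 3549, 3164 and 4244 CPM in TA and 2498, 2327 and 2919 in GS. The gene Slc1a2 alone held 1937, 1308 and 2200 CPM of it in TA and 973, 758 and 827 in GS. The sum of 12 endothelial and pericyte markers was 585, 299.8 and 319 CPM in TA and 121, 96.4 and 276 in GS. The gene Rgs5 alone held 509, 192 and 221 CPM of it in TA and 67.2, 61.6 and 216 in GS, and these overlapped. Of the 12 tested, 7 had a log2 fold change above 0 and 5 below. None had each TA library above each GS library, and only Pdgfrb had the reverse. All 3 sums were higher in each TA library than in any GS library, while with library totals in place of TMM only the endothelial sum was. None of the oligodendrocyte or astrocyte markers was called, although 12 of 14 tested oligodendrocyte markers lay above 0, with a median log2 fold change of 1.52. Of 12 tested astrocyte markers 7 lay above 0 and 5 below, with a median of 0.25. Summed microglia, fibroblast and interneuron markers overlapped between the pools, and the oligodendrocyte gene Opalin, the microglia gene Aif1 and the interneuron genes Pax2 and Lbx1 had no read in the 6 libraries.

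**Figure D1:**
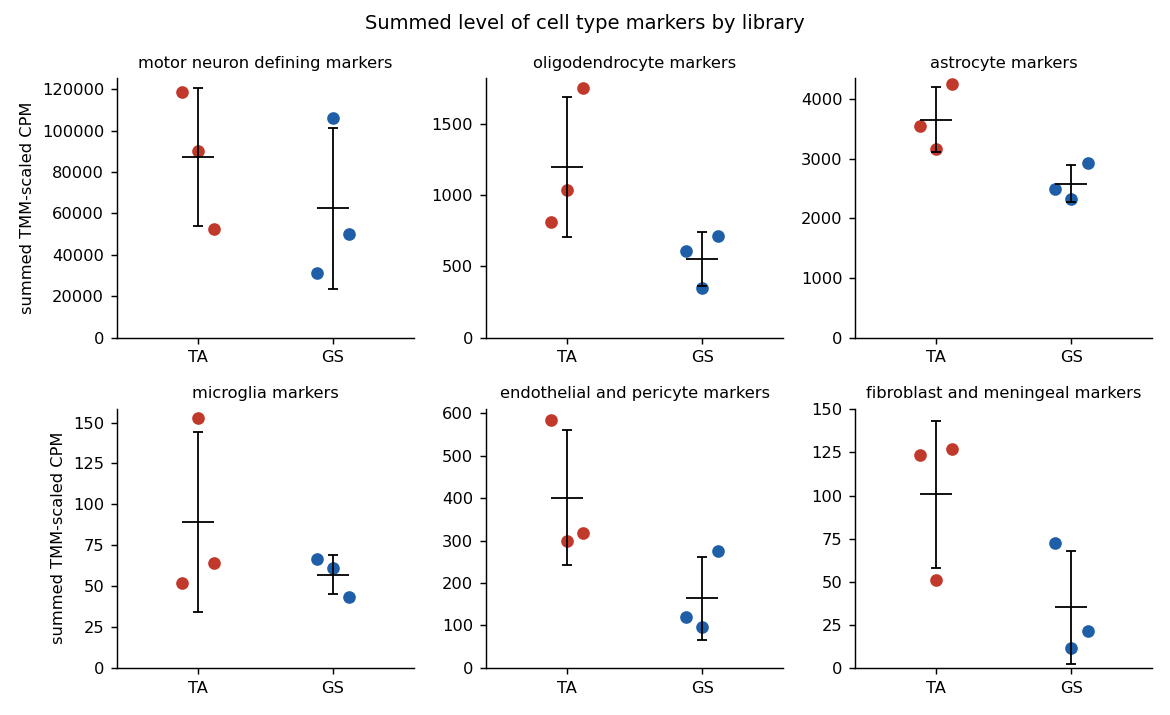
Summed TMM-scaled CPM of the markers of each cell type in the 3 TA and 3 GS libraries, with 1 point per library, the mean as a line and the standard deviation as bars. The oligodendrocyte, astrocyte and endothelial sums of the TA libraries lie above those of the GS libraries, while the motor neuron sums overlap.

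Of 14340 genes tested, 9 were called between TA and GS, which is 0.0628% of them (edgeR quasi-likelihood test, Benjamini-Hochberg adjusted p at or under 0.05). Genes called higher in TA numbered 5 (0.0349% of genes tested) and encode the adhesion molecules Ncam2 and Alcam, the membrane glycoprotein Parm1, the calcium channel subunit Cacna2d1 and the secretory granule protein Scg2. Genes called higher in GS numbered 4 (0.0279%) and encode Isl1, the heparan sulfate sulfotransferase Hs3st4, Pcp4l1, a relative of the calmodulin-binding protein Pcp4, and the adhesion molecule Negr1. In all 9 genes the 3 TA libraries did not overlap the 3 GS libraries. Among all genes tested, 703 (4.9%) had each TA library above each GS library, and 1060 (7.39%) the reverse. An unadjusted p under 0.05 was reached by 1024 genes (7.14%). The median log2 fold change over all genes was 0.01, and it shifted to -0.11 with upper-quartile scaling and to -0.18 with library totals alone. Under these scalings the calls split into 5 higher in TA and 6 in GS, and into 4 and 5. With library totals the genes with non-overlapping libraries numbered 426 higher in TA and 1370 higher in GS. The count of 9 fell to 2 without TA library 1 and to 4 without GS library 3, and was 21 without PL library 3. The fit of the 6 TA and GS libraries alone called 4 genes, Ncam2, Alcam, Isl1 and Pcp4l1. Because the libraries were not strand-specific, the counts of a gene may include reads of a gene that overlaps it on either strand.

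**Figure D2:**
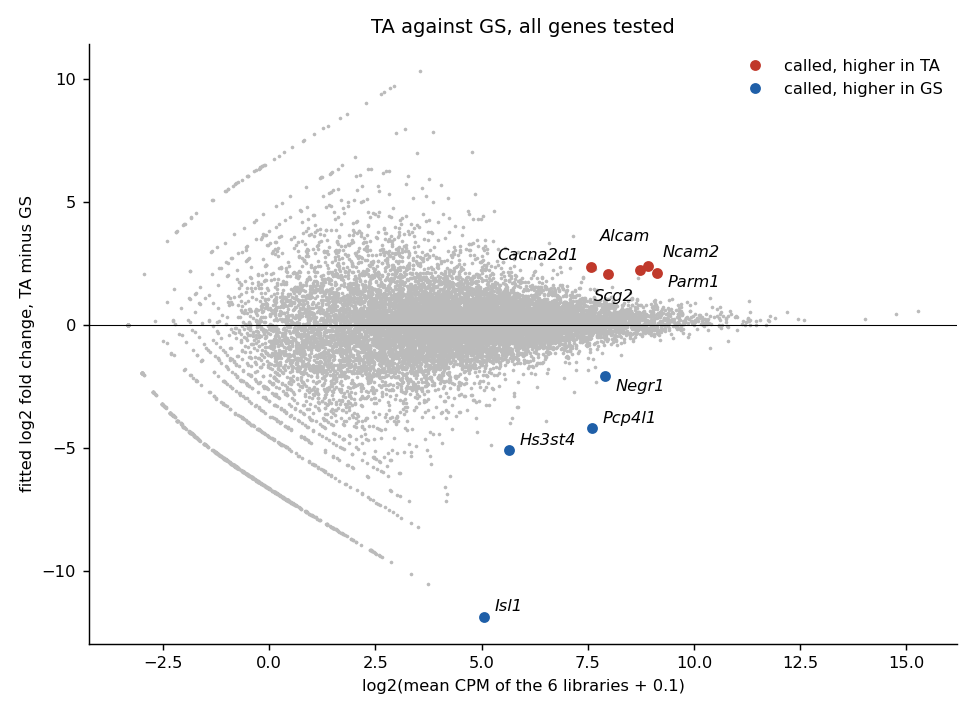
Fitted log2 fold change of TA over GS against the log2 of the mean CPM over the 6 libraries plus 0.1, for the 14340 genes tested. Grey points are genes that were not called, red points the 5 genes called higher in TA and blue points the 4 called higher in GS. Fitted changes of genes without a read in a pool, the Isl1 point among them, depend on the prior count and are not sizes.

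Isl1, the defining factor of the medial division, was read in each GS library and in no TA library. The GS libraries held 52.6, 94.1 and 51.4 CPM, from 1228 reads. Set against 3 reads over the TA libraries, the count of reads that a zero allows, the level in GS was at least 371.9-fold higher (edgeR adjusted p = 0.0103). Such floors cover counting error only. Isl1 was also close to absent from the dorsal pools EDL, with 5 reads, and PL, with none, and stood at 97.1 ± 19.6 CPM (SD, n = 3) in IF. Its adjusted p was 0.059 without TA library 1.

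Lhx1, the partner factor of the lateral division, was low in both pools at this age. The TA libraries held 5.43, 9.57 and 0 CPM and the GS libraries no read. The level in TA was at least 31.18-fold higher than 3 reads over the GS libraries allow, but TA library 3 also held no read, and the difference was not called (edgeR adjusted p = 0.561). Foxp1, which marks limb motor neurons, held 136, 180.4 and 151 CPM in TA and 117, 219 and 143 in GS. Mnx1, a general motor neuron factor, varied from 1.76 to 31.2 CPM in TA and from 5.85 to 35.1 in GS. Both factors overlapped between the pools. Epha4, the guidance receptor of the lateral division, held 114, 219.6 and 142 CPM in TA and 119, 180.1 and 178 in GS, with a log2 fold change of -0.00 ± 0.36 (SE). The 14 tested LIM and column factors thus held 1 call, beside 0.0628% of all genes, and their median log2 fold change was -0.02. Of the 14, 3 (21.4%) had each GS library above each TA library and 1 (7.14%) the reverse, beside 7.39% and 4.9% of all genes. Besides Isl1 these were, named after their values were seen, Lmo1 and Lmo3 higher in GS and Ldb2 higher in TA, none of them called.

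Adhesion molecules of the immunoglobulin superfamily, which mediate contacts between axons and their neighbours, held 3 of the 9 calls. These were 3 of 31 tested members, while 0.0628% of all genes tested were called. The list was chosen with earlier results of these data known, so this count is not a test of the family. Ncam2, a relative of the neural cell adhesion molecule, held 996, 660.3 and 777 CPM in TA and 108, 163 and 190.2 in GS. Every TA library lay far above every GS library. The log2 fold change was 2.40 ± 0.30 (SE; edgeR adjusted p = 0.00348). It was also called in each of the 15 fits that left out 1 library. Alcam, an axonal adhesion molecule that also binds itself, held 682, 729.6 and 694 CPM in TA and 154, 168 and 118 in GS. The TA libraries lay close to each other and far above GS, with a log2 fold change of 2.25 ± 0.33 (SE; edgeR adjusted p = 0.00744). Without GS library 3 the adjusted p of Alcam was 0.0869.

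Negr1, a membrane-anchored adhesion molecule of neurons, went the other way. It held 81.2, 73 and 121 CPM in TA and 244, 435 and 480.1 in GS. Each GS library was above each TA library, and the log2 fold change was -2.07 ± 0.35 (SE; edgeR adjusted p = 0.0259). This call was kept in 8 of the 15 fits that left out a library, and lost without TA library 1 or 2, GS library 2 or 3 or any IF library, with adjusted p-values of up to 0.177. Of the 31 tested genes of the family, 10 (32.3%) had each TA library above each GS library and 2 (6.45%) the reverse, beside 4.9% and 7.39% of all genes. With library totals these were 7 and 2. The others above GS, named after their values were seen, were Opcml, Nfasc, Cntn4, Cadm1, Cadm2, Igsf8, Sdk1 and Mcam, none of which was called. The median log2 fold change of the family was 0.36, and 0.18 with library totals. Its summed level was 12260, 10400 and 10260 CPM in TA and 7004, 9862 and 8786 in GS, without overlap. This sum includes the called genes Ncam2 and Alcam, so it is not a separate result about the other members.

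A further 3 genes were called higher in TA. Parm1 held 1203, 719 and 806 CPM in TA and 113, 281 and 229.7 in GS, with no overlap and a log2 fold change of 2.13 ± 0.34 (SE; edgeR adjusted p = 0.0148). Its adjusted p rose above 0.05, to at most 0.147, without TA library 1, GS library 1 or GS library 3. Cacna2d1, the alpha2delta subunit that carries calcium channels to the surface and binds gabapentin, held 358, 313 and 289 CPM in TA and 60.7, 41.4 and 84.2 in GS. The 3 TA libraries were tightly grouped above GS, and the log2 fold change was 2.37 ± 0.41 (SE; edgeR adjusted p = 0.0289). Its call was kept in 4 of the 15 fits that left out a library, those without EDL library 1 or a PL library, and elsewhere the adjusted p rose to at most 0.202. Among the 34 tested sodium, calcium and HCN channel genes it was the only one called.

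Scg2, which encodes a granin of dense-core vesicles and the precursor of secretoneurin, held 492, 479.8 and 252 CPM in TA and 57, 108 and 126 in GS. TA library 3 was the lowest of its pool and still above all GS libraries. The log2 fold change was 2.07 ± 0.37 (SE; edgeR adjusted p = 0.0351), and 5 of the 15 fits without a library kept the call, those without TA library 3, EDL library 1 or a PL library, with adjusted p-values of up to 0.201 in the others. Scg2 is shown with its promoter because it alone of the 9 called genes held one of 3 motifs searched on both strands in the 250 bases before the start site. The 9 promoters matched by symbol in RefSeq (build GRCm38.p6). TGACGTCA, the palindromic cyclic AMP response element, was found in Scg2 and in 1.55% of all 32851 promoters of that length. TAATTA, a homeodomain core, was in none of the 9 and in 4.84% of all. TATAAA, a form of the TATA box, was in none of the 9 and in 12.4% of all. Only these exact letters were searched, so variants of a motif were not counted. The sequence below is the minus strand of chr1:79440027-79440276, 5′ to 3′, with the matched letters in capitals, the first of them 68 bases before the start.
Scg2: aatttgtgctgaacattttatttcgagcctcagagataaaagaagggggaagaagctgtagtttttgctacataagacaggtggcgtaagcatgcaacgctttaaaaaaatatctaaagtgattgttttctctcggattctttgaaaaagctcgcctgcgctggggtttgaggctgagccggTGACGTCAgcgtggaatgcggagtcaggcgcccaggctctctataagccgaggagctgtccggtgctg
A match is a description of letters and not a binding site.

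**Figure D3:**
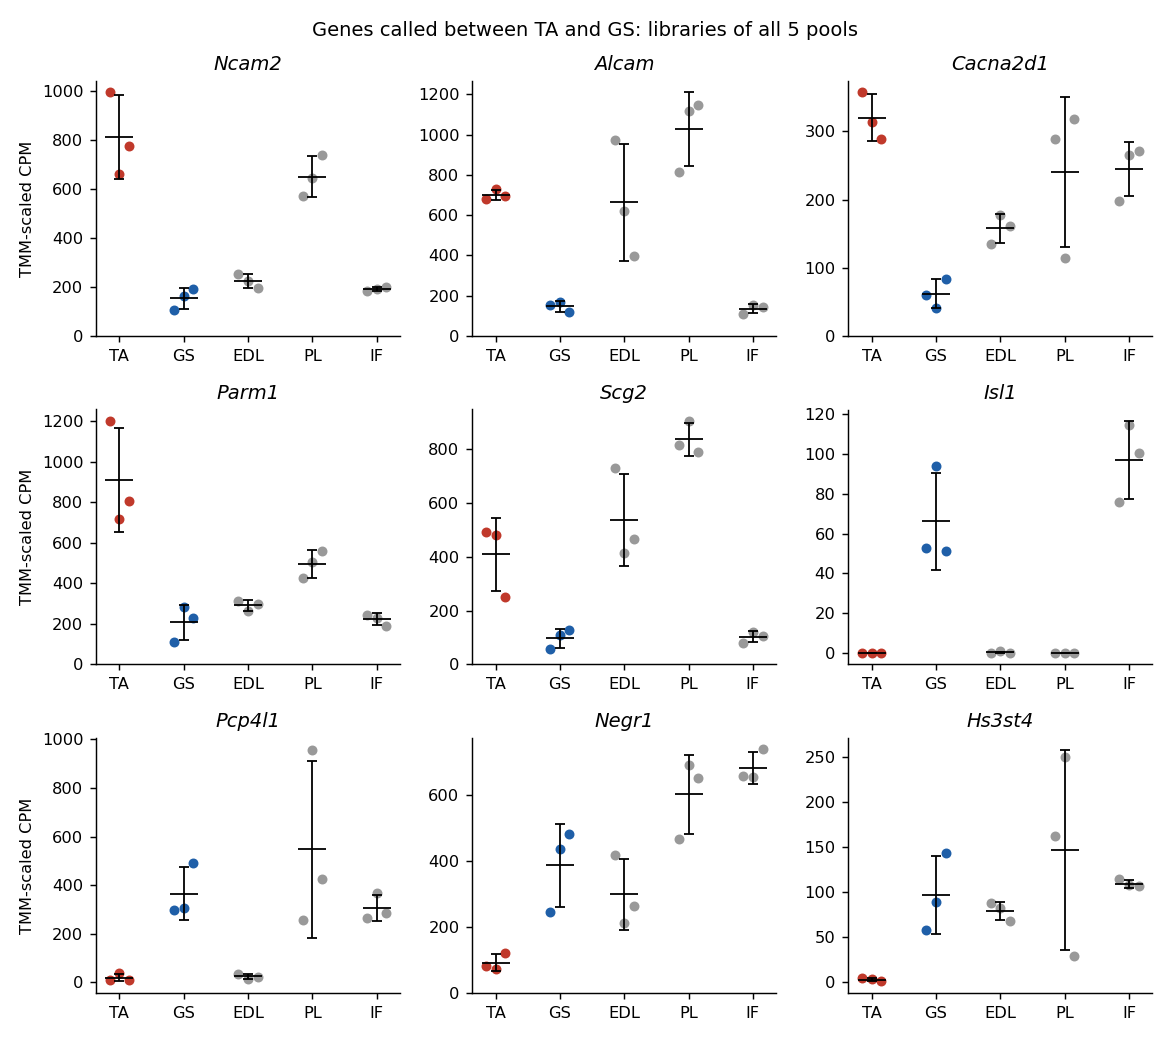
TMM-scaled CPM of the 9 called genes in the 3 libraries of each of the 5 pools, with 1 point per library, the mean as a line and the standard deviation as bars. TA and GS do not overlap in any panel. Alcam, Scg2 and Isl1 were also called between EDL and PL on one side and IF on the other, and Hs3st4 is lowest in the TA libraries.

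Heparan sulfate enzymes modify the sugar chains through which many guidance and growth factors act. Hs3st4, which adds a sulfate at the 3-O position, held 4.41, 3.25 and 0.879 CPM in TA and 58, 88.9 and 144 in GS. All TA libraries were far below all GS libraries, with a log2 fold change of -5.08 ± 0.76 (SE; edgeR adjusted p = 0.00939). The other 17 tested heparan sulfate enzymes were not called and all overlapped between the pools. Pcp4l1 showed a similar contrast, with 10.8, 37.9 and 11.6 CPM in TA and 299, 307 and 492 in GS. The lowest GS library was far above the highest TA library, and the log2 fold change was -4.18 ± 0.58 (SE; edgeR adjusted p = 0.00722). Without TA library 1 the adjusted p of both genes was 0.059, and the call of Hs3st4 was also lost without TA library 2. Neither gene was called by limma voom.

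The 5 genes called higher in TA stood in the pool whose libraries also held higher oligodendrocyte, astrocyte and endothelial marker sums. The part of these markers in the results was not tested. The marker with the smallest p among them was the astrocyte glutamate transporter gene Slc1a2, with 1937, 1308 and 2200.0 CPM in TA and 973, 758 and 827 in GS. Its log2 fold change of 1.09 ± 0.27 (SE) was not called (edgeR adjusted p = 0.311). Gpr17, an oligodendrocyte precursor receptor, held 87.3, 142 and 112 CPM in TA and 73.1, 34.6 and 21.6 in GS and was not called either. The oligodendrocyte myelin gene Mog was uneven among the TA libraries, at 0, 11.4 and 42.6 CPM.

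Hox genes set the position of motor neurons along the cord and divide the columns into pools. None of 24 tested Hox genes was called, and 4 (16.7%) had each GS library above each TA library, beside 7.39% of all genes. Hoxd11 held 1.53, 0.542 and 0.176 CPM in TA and 17.1, 14.1 and 45.2 in GS, and was not called (log2 fold change -5.05 ± 1.41, SE; edgeR adjusted p = 0.441). Hoxa11 held 5.77, 0 and 0.176 CPM in TA and 41.1, 25.9 and 45.2 in GS (edgeR adjusted p = 0.542). Both were low in every TA library and present in every GS library. Hoxc11 had no read in TA and 3.95, 0.681 and 2.12 CPM in GS, at least 13.33-fold above what 3 TA reads would give. The paralog group 10 genes, markers of the lumbar limb level, overlapped instead. Hoxc10 held 475, 338 and 295 CPM in TA and 106, 284 and 464 in GS, and Hoxd10 ranged from 12 to 58.3 CPM in TA and from 29.4 to 59.6 in GS.

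Cofactors of the Hox proteins held no call either. Of 9 tested, 4 (44.4%) had each TA library above each GS library and none the reverse, also with library totals, beside 4.9% and 7.39% of all genes. Their median log2 fold change was 0.63. Meis2 held 133, 125 and 168 CPM in TA and 41.2, 11.2 and 24.5 in GS, with a log2 fold change of 2.47 ± 0.64 (SE; edgeR adjusted p = 0.4). The summed level of the 9 genes was 547, 499 and 529 CPM in TA and 246, 364 and 276 in GS.

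Other transcription factors linked to motor pools held no call among 32 tested, with 3 (9.38%) above GS in each TA library and 6 (18.8%) below, beside 4.9% and 7.39% of all genes. Sox6 held 78.9, 90.7 and 71.2 CPM in TA and 19, 28.3 and 11.3 in GS (log2 fold change 2.04 ± 0.55, SE; edgeR adjusted p = 0.4). Tshz2 held 100.2, 158 and 146 CPM in TA and 32.8, 41.4 and 33.8 in GS (edgeR adjusted p = 0.417). Neither gene's libraries overlapped between the pools. Nkx6-1 had no read in TA and 2.63, 2.72 and 13.4 CPM in GS, at least 35.13-fold above what 3 TA reads would give (edgeR adjusted p = 0.5). Pou3f1 had 10 reads in GS and none in TA and was below the filter on low counts.

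**Figure D4:**
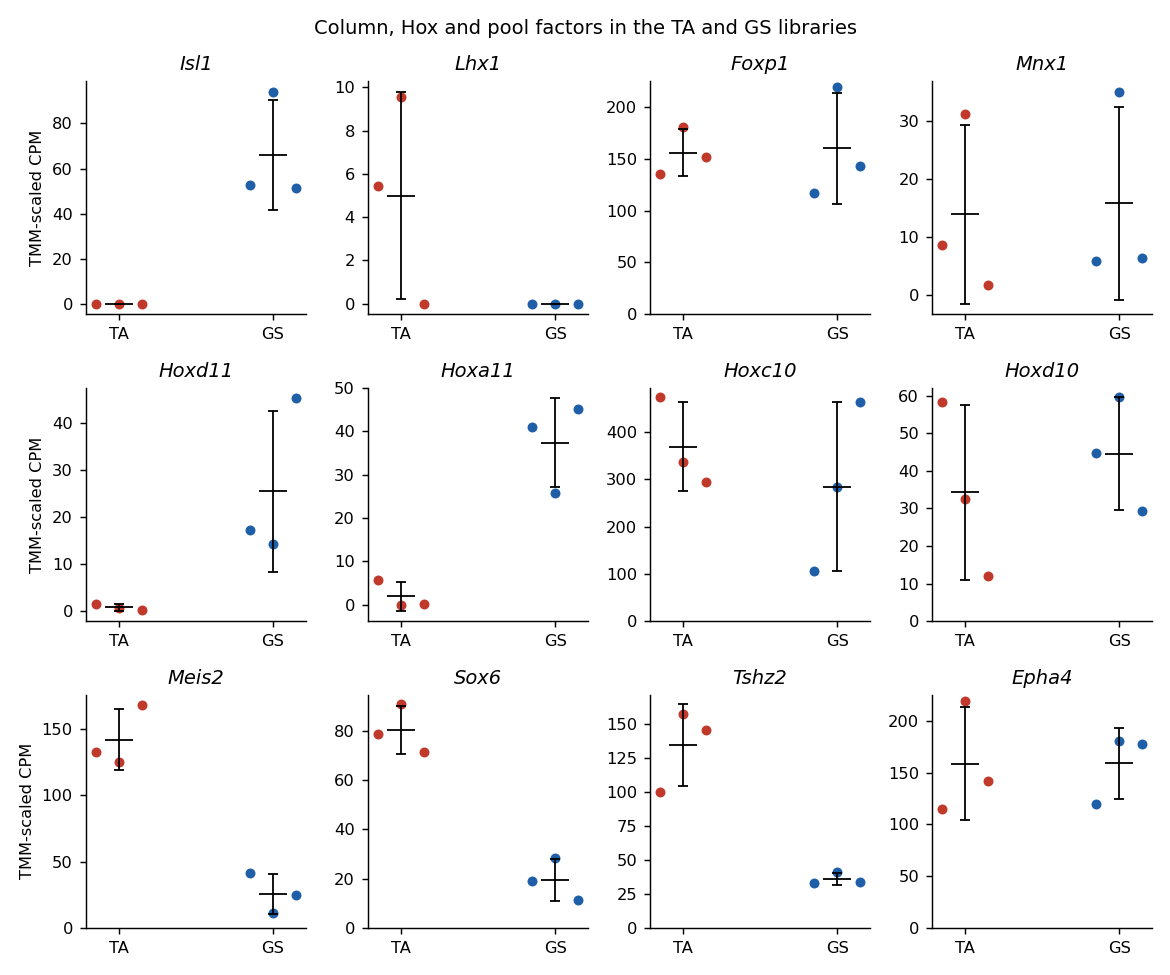
TMM-scaled CPM of 12 column, Hox and pool factors in the 3 TA (red) and 3 GS (blue) libraries, with 1 point per library, the mean as a line and the standard deviation as bars. Isl1, Hoxd11 and Hoxa11 lie higher in GS and Meis2, Sox6 and Tshz2 higher in TA without overlap, and of these 6 only Isl1 was called. Foxp1, Mnx1, Hoxc10, Hoxd10 and Epha4 overlap.

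Retinoic acid is a patterning signal of limb motor neurons. The retinaldehyde dehydrogenase gene Aldh1a2, which makes it, held 622, 479.5 and 379 CPM in TA and 226, 177 and 474 in GS. GS library 3 lay within the TA range, and the gene was not called (log2 fold change 0.75 ± 0.40, SE; edgeR adjusted p = 0.776). Crabp1, a retinoid-binding protein gene, held 0, 1.26 and 0.352 CPM in TA and 18.3, 56.9 and 6.69 in GS without a call. None of 16 tested retinoid genes was called, and 8 lay above 0 and 8 below, with a median log2 fold change of -0.06. Each TA library was above each GS library in 2 (12.5%) and below in 3 (18.8%), beside 4.9% and 7.39% of all genes. The summed level of the 20 listed genes was 824, 764 and 844 CPM in TA and 353, 448 and 606 in GS, without overlap. Aldh1a2 averaged 493 CPM of a mean sum of 811 in TA and 292 of 469 in GS.

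Guidance receptors and ligands steer axons at choice points in the limb. Unc5d, a netrin receptor, held 0.848, 13 and 5.98 CPM in TA and 62.9, 40.2 and 36.9 in GS. All GS libraries were above all TA libraries, but the log2 fold change of -2.82 ± 0.67 (SE) was not called (edgeR adjusted p = 0.266). Of 17 tested netrin and slit genes, 5 (29.4%) had each GS library above each TA library and none the reverse, beside 7.39% and 4.9% of all genes. They were Unc5d, Unc5a and, named after their values were seen, Dcc, Slit1 and Slit3. The median log2 fold change of these 17 genes was -0.79, and -0.53 with genes lacking reads in a pool set at their bound or left out.

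Sema3c, a secreted semaphorin, held 53.6, 39 and 34.6 CPM in TA and 123, 172 and 147 in GS, again without overlap and without a call (edgeR adjusted p = 0.441). The semaphorin receptors Nrp1 and Nrp2 had log2 fold changes of -0.36 ± 0.41 and -0.02 ± 0.35 (SE). Of 29 tested semaphorin, plexin and neuropilin genes none was called. Among 17 tested Eph receptors and ephrins, likewise without a call, Epha6 held 0.339, 0 and 0.703 CPM in TA and 17.4, 15.3 and 7.34 in GS.

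Cadherins bind cells of like type and are known to take part in the sorting of motor pools. Cdh12 was the cadherin nearest to a call, with 20.01, 75 and 20.4 CPM in TA and 138, 296 and 317 in GS. The libraries did not overlap, and the log2 fold change was -2.70 ± 0.52 (SE; edgeR adjusted p = 0.0813). It was called with upper-quartile scaling and with library totals. Cdh8 had 1 read in TA and 399 in GS, a ratio of 362.5 (95% counting interval 64.7 to 14360), and GS library 2 held most of them, at 61 CPM against 4.39 and 1.79. None of 14 tested cadherins or 11 tested protocadherins was called.

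None of the 20 tested neurotrophic factors and receptors was called. Hgf, a motor axon attractant and survival factor, held 11.2, 34.7 and 20.1 CPM in TA and 0.292, 0 and 0.163 in GS, from 3 GS reads. The ratio was 136.5 (95% counting interval 46.34 to 664.7), and the gene was not called (edgeR adjusted p = 0.4). The GDNF receptor genes Ret and Gfra1 overlapped between the pools, with log2 fold changes of 0.09 ± 0.24 and -0.15 ± 0.30 (SE).

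Of 18 tested neuropeptide precursors, a list without Scg2, none was called. Adcyap1, which encodes PACAP, had 178 reads in TA and 2 in GS, and Tac1, the substance P precursor, 1 read in TA and 143 in GS. Their adjusted p-values by edgeR were 0.5 and 0.495. GS library 2 held most of the Tac1 reads, at 20.4 CPM against 0.292 and 3.43 in GS libraries 1 and 3. Calca, which encodes calcitonin gene-related peptide, held 1247, 1455 and 894 CPM in TA and 553, 737 and 575 in GS. Each TA library was above each GS library, with a log2 fold change of 0.95 ± 0.34 (SE; edgeR adjusted p = 0.561). Sst, the somatostatin precursor, held 896, 1089 and 779 CPM in TA and 936, 2342 and 2005 in GS, where library 1 lay within the range of TA. Of 36 tested peptide and modulator receptors none was called. The relaxin receptor gene Rxfp1 had 313 reads in TA, spread as 20.01, 3.07 and 31.3 CPM, 1 in GS and none in the other 9 libraries of the series (edgeR adjusted p = 0.462).

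Ion channels and transmitter receptors shape how motor neurons fire. Chrna3, a nicotinic receptor subunit, had the smallest p among these families after Cacna2d1, with 0.339, 0.181 and 0.176 CPM in TA and 21.6, 45.3 and 39.2 in GS. It was present in every GS library and rested on 4 reads in TA, but was not called (edgeR adjusted p = 0.13). Grik3, a kainate receptor subunit, held 3.22, 3.25 and 0.879 CPM in TA and 51.5, 65.9 and 97.6 in GS, again without overlap (log2 fold change -4.86 ± 1.27, SE; edgeR adjusted p = 0.4). Kcng1, a modulatory potassium channel subunit, held 35.1, 5.96 and 127 CPM in TA and 1.61, 1.36 and 1.14 in GS. Its TA libraries differed widely among themselves, and it was not called (edgeR adjusted p = 0.4). Of 55 tested potassium channel genes, 6 (10.9%) had each TA library above each GS library and 1 (1.82%) the reverse, beside 4.9% and 7.39% of all genes. With library totals these were 5 and 3.

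Alpha motor neurons drive the force of a muscle and gamma motor neurons set the sensitivity of its spindles. Of 14 tested alpha and fast genes and 11 tested gamma and slow genes none was called. Esrrg, a nuclear receptor of gamma motor neurons, held 303, 316 and 670.4 CPM in TA and 364, 553 and 591 in GS. Rbfox3, which is high in alpha motor neurons, held 629.7, 408 and 180.3 CPM in TA and 195, 316 and 176 in GS. Both genes overlapped, with log2 fold changes of -0.23 ± 0.37 and 0.83 ± 0.46 (SE).

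**Figure D5:**
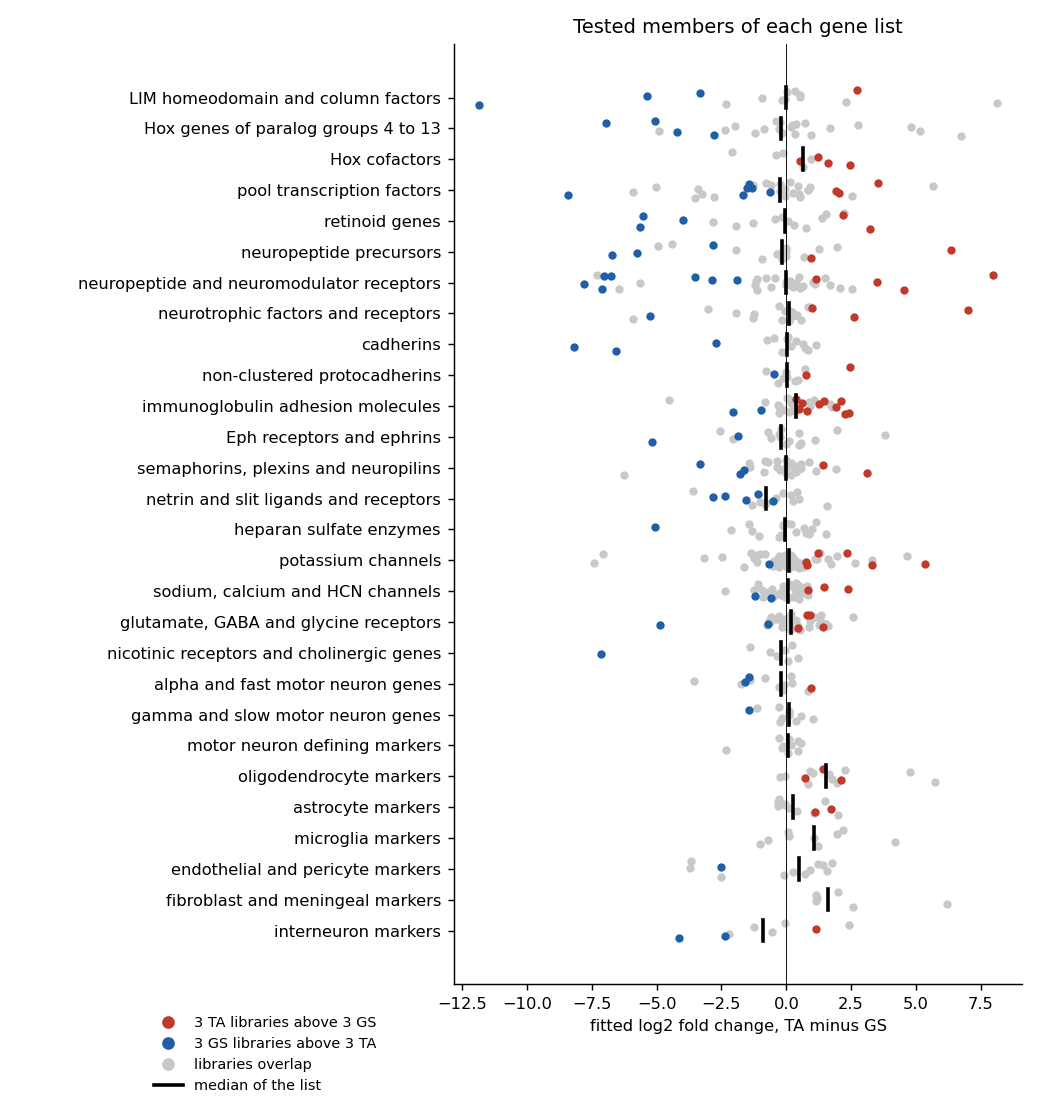
Fitted log2 fold change of TA over GS for each tested member of the 28 gene lists, with 1 point per gene and a black bar at the median of each list. Red points have all 3 TA libraries above all 3 GS libraries, blue points the reverse, and grey points overlap. Red points are 10 of 31 immunoglobulin adhesion molecules and 4 of 9 Hox cofactors, and blue points are 5 of 17 netrin and slit genes, while most members of most lists are grey. Fitted changes of genes without a read in a pool depend on the prior count.

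The other dorsal pools, EDL and PL, were set against the other ventral pool, IF, to set the differences between TA and GS beside those of pools whose libraries enter neither mean. The libraries of EDL, PL and IF do enter the shared estimate of the spread behind the 9 calls, and Scg2 was not called in the fit of the 6 TA and GS libraries alone. That contrast, the mean of EDL and PL minus IF, called 69 genes, 0.481% of those tested. This count was 616 without PL library 1, 41 without EDL library 1 and 25, 18 and 21 without IF libraries 1, 2 and 3, in that order. Of the 9 genes called between TA and GS, 8 had the same sign in it, beside 54.2% of all genes tested. Among the 8 is Hs3st4, whose log2 difference there was -0.02 ± 0.55 (SE), so its sign is not informative. Called in both, in the same direction, were 3 genes (0.0209% of genes tested), Alcam, Scg2 and Isl1, which are 33.3% of the calls between TA and GS and 4.35% of the 69. Leaving out PL libraries 2 and 3, which held few genes with a read, kept all 3. The number called in both was 1 without TA library 1 or GS library 3, and 5, 6 and 6 without PL libraries 1, 2 and 3. It was 2, Alcam and Isl1, without EDL library 2 or 3, GS library 1 or 2 or any IF library. Scg2 was also not called in both without TA library 2, with limma voom or with the replicate block.

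Alcam stood at 665 ± 291 CPM in EDL, 1028 ± 184 in PL and 135 ± 21.6 in IF (SD, n = 3), a log2 difference of 2.61 (edgeR adjusted p = 0.000254). Scg2 stood at 536 ± 170, 835 ± 60.5 and 102 ± 20.1 CPM, a log2 difference of 2.71 (edgeR adjusted p = 0.000489). For these genes the dorsal pools were all high and the ventral pools all low. Several named genes not called between TA and GS were called in the other contrast. They were Chrna3, Meis2, Sox6, Calca, Sst, Tac1, Foxp1, Hoxc10, Aldh1a2, Nts and Kcng1. Nts and Kcng1 had opposite signs in the contrasts. Sox6 and Calca had adjusted p-values by edgeR of 0.000317 and 0.000489 there. Chrna3 stood at 61.8 ± 7.26 CPM in IF (SD, n = 3), with 2 reads in EDL and 33 in PL (edgeR adjusted p = 0.00278). Meis2 stood at 203 ± 26.2 CPM in EDL, 124 ± 102 in PL and 7.93 ± 4.24 in IF (edgeR adjusted p = 0.00327).

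The other 6 called genes were not called between EDL and PL on one side and IF on the other. Hs3st4 stood at 79.4 ± 10.2 CPM in EDL, 147 ± 111 in PL and 109.5 ± 4.35 in IF (SD, n = 3), so TA was the low pool of the 5. Its difference between the contrasts was not called (edgeR adjusted p = 0.0642). Cacna2d1, at 158 ± 21.3, 241 ± 110.1 and 245 ± 40.3 CPM, was lowest in GS, and the test of its difference gave an adjusted p of 0.096 with edgeR. Pcp4l1 was low in EDL, at 24.9 ± 10.6 CPM, as in TA, and high in PL, at 547 ± 366. Ncam2 was at 650.2 ± 84.2 CPM in PL, near TA, but at 224 ± 29.6 in EDL and 193 ± 9.02 in IF. Parm1 and Negr1 likewise were not called between the other pools, with edgeR adjusted p-values of 0.356 and 0.414.

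The authors' deposited tables for this pair, made with DESeq per the submitters' processing notes, list 21 genes higher in TA and 20 higher in GS. All 9 genes called here are in the authors' deposited tables, and 39 of their 41 genes were tested, each with an unadjusted p under 0.05 here. The libraries of 32 of these genes did not overlap in the direction of the authors' deposited tables, 15 higher in TA and 17 in GS. Among all genes tested, 4.9% had each TA library above each GS library and 7.39% the reverse. The authors' tables compare the same TA and GS libraries, so these counts are not separate support for the calls. In the authors' deposited table Pcp4l1 was 19.03-fold higher in GS (adjusted p = 1.43e-08), Hs3st4 34.7-fold (adjusted p = 0.000155) and Negr1 4.3-fold (adjusted p = 0.0224). In the authors' deposited table for TA, Ncam2 was 5.18-fold higher (adjusted p = 0.000213) and Alcam 4.6-fold (adjusted p = 0.00221). The authors' deposited tables give gene positions, and the build of the series is mm9, per the submitters' processing notes. Isl1 lies at chr13:117088478-117099896 on the minus strand, Alcam at chr16:52249109-52454187, Ncam2 at chr16:81200942-81624530, Hs3st4 at chr7:131126383-131542503 and Pcp4l1 at chr1:173103393-173126399.

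The authors' deposited tables also hold genes that lie outside the fitted calls. Ppp1r1c, an inhibitor subunit of protein phosphatase 1, held 0.678, 32.9 and 0.879 CPM in TA and 131, 189.8 and 196 in GS. TA library 2 stood apart from the other TA libraries and was still below GS (edgeR adjusted p = 0.311). Nab2, a transcriptional corepressor, held 30.02, 97 and 35 CPM in TA and 1.17, 0 and 0 in GS (edgeR adjusted p = 0.4). Arhgap33 held 662, 118 and 10.4 CPM in TA and 32.3, 3.75 and 28.2 in GS, so TA library 3 lay within the GS range.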

How the data were processed

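Traced motor neurons of each pool were pooled by laser capture, amplified with Ovation RNA-Seq V2, tagged with Nextera and sequenced single-end to 25 to 30 M reads, per the labels' protocols. The authors deposited a table of read counts per gene, used here without further scaling by them. Per the submitters' processing notes the aligner was Bowtie 0.12.9 and the build mm9. The gene counter is not given in the sources used here. In 9 count columns the deposited counts included values below 0, 16 cells in 4 genes, and these genes were left out. The authors' deposited tables for TA and GS held ratios (fold changes) and p-values, which the notes credit to DESeq, with no version given.

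Of 36814 genes, 14340 passed the filterByExpr rule of edgeR 4.0.16 (R 4.3.3). All 15 libraries, with totals of 5488780 to 7042076 reads in TA and GS, entered 1 quasi-likelihood fit with TMM scaling and no replicate block. The SE of a log2 fold change was taken as its size over the square root of F, and p-values were adjusted by the Benjamini-Hochberg method over all 14340 genes with a threshold of 0.05. The same fit tested EDL and PL against IF and the difference of the contrasts. The scripts were tested on simulated counts. No 2 libraries of TA or of GS agreed within counting noise. Counting intervals are exact at 95% and floors are 3 reads over a pool. Intervals and floors cover counting error only, since reads after amplification are not independent molecules. Named genes were up to 14 called genes per direction without overlap, called members of 28 lists (up to 6 per direction) or their 2 members with the smallest p, the markers Ncam2, Alcam and Isl1, a set of known motor neuron genes, and the 5 genes per direction with the smallest p in the authors' deposited tables. The members, lists and tests were chosen with earlier results of these data known. Alternatives were other scalings, DESeq2 1.42.0, limma 3.58.1 voom, other filters, other library sets, replicate blocks and leaving out each library. The values of 1 listed gene are not reported here.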

Additional observations from a re-analysis of the deposited data

Results flagged for a closer look

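The difference between TA and GS was set against that between EDL and PL on one side and IF on the other, and 4 genes (0.0279% of those tested) were called for a difference between the contrasts by edgeR with Benjamini-Hochberg adjustment. Without a PL library 10 to 14 genes were called, and without TA library 3, EDL library 1, GS library 3 or any IF library 2 were. Among the named genes the 4 included Aldh1a2, Nts and Kcng1. Aldh1a2 differed by -6.58 on the log2 scale (adjusted p = 1.35e-05). It overlapped between TA and GS, and stood at 365 ± 21.1 CPM in EDL, 746 ± 184 in PL and 3.2 ± 1.54 in IF (SD, n = 3). Nts, the neurotensin precursor, differed by -6.61 (adjusted p = 1.35e-05). It held 23.1, 30.2 and 45.2 CPM in TA and 28.1, 53.3 and 28.6 in GS, against 514 ± 74.5 in EDL, 232 ± 18.2 in PL and 3.95 ± 1.51 in IF. Kcng1 differed by a fitted 12.67 (adjusted p = 0.032). It was above GS in each TA library, while IF held 14.1 ± 6.91 CPM, EDL 10 reads and PL none, so the fitted size depends on the prior count.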

How the results depend on the processing

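Depth, with totals from 5488780 to 7042076 reads and 30 to 40 cells a library, limits low genes, and the spread between libraries was wide (common dispersion 0.789). All 9 calls kept their direction under every alternative run. The counts of 9 genes called between TA and GS (5 higher in TA, 4 in GS), 69 between EDL and PL and IF, 3 in both and 4 for the difference of the contrasts changed as follows, in that order, and the cause was not tested. DESeq2 gave 172 (48 and 124), 243, 18 and 108, and its 172 included the 9. limma voom gave 14 (10 in TA), 178 and 13 for the difference, and 5 of the 9 were among its 14. Those it lost were Scg2, Pcp4l1, Negr1 and Hs3st4, so of the genes called higher in GS only Isl1 stayed. Without the filter on low counts they were 55 (20 and 35), 252, 13 and 63. Without PL libraries 2 and 3 they were 39 (14 and 25), 44, 6 and 18. The 6 TA and GS libraries alone gave 4 (2 and 2). Leaving out single libraries gave 2 to 21 calls, 1 to 8 higher in TA and 0 to 13 higher in GS. For EDL and PL against IF the range was 18 to 616, for both contrasts 1 to 6 and for their difference 2 to 14. The other scalings and the filter of at least 10 counts in 3 libraries stayed within 1.5 times of each count. Of the 70 named genes that were tested but not called, 24 were called under at least 1 alternative, 18 of them by DESeq2.

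Deviations of same-numbered TA and GS libraries correlated at -0.0623, 0.0047 and 0.0237, and those of other numbers at -0.0633 to 0.0588. The labels do not give the animals of each library, so these values cannot show whether libraries shared animals or a batch. With the replicate block the 15-library fit called 10 genes, 8 of them among the 9. In the 6-library fit with the block edgeR called 0 genes (0 higher in TA and 0 in GS), and 631 had an unadjusted p under 0.05.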
